A study of Mus musculus with 25 samples.

Results

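Potassium channel genes were followed in the sciatic nerve of mouse models of Charcot-Marie-Tooth type 1A (CMT1A), a demyelinating neuropathy. The set holds every protein-coding mouse gene whose symbol begins with Kcn, the prefix of potassium channel pore subunits, their auxiliary subunits and a few regulators. Of 94 such genes among the 56956 genes counted, 53 had a mean of at least 0.5 CPM (counts scaled to the library's total) over the 25 libraries and are described here, and 41 were below that level. The members nearest to the limit were Kcnc4 with 0.692 CPM, Kcne3 with 0.787 CPM and Kcnh1 with 0.857 CPM inside it, and Kcng4 with 0.490 CPM, Kcnc1 with 0.434 CPM and Kcne5 with 0.404 CPM outside it.

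The libraries came from whole sciatic nerve in 5 groups of 5, with 1 library for each age of 3, 5, 7, 9 and 12 weeks. C3 mice (B6.Cg-Tg(PMP22)C3Fbas/J, C57BL/6J background) carry 5 extra copies of the human PMP22 gene and were compared with C57BL/6J controls, called WT-C3. C22 mice (Tg(PMP22)C22Clh, FVB/NRJ background) carry 10 extra copies and were compared with FVB/NRJ controls, called WT-C22. The remaining group, C3-PMP22 c-JunP0Cre, is a C3 mouse in which Cre recombinase under the P0 promoter, active in the Schwann cell lineage, removes the transcription factor c-Jun. Its labels name no strain and it had no control with Cre alone, so a strain or Cre effect and the loss of c-Jun cannot be told apart. No mouse was treated, and each library is a pool of 4 to 5 males and females. All library names share 1 prefix, and its meaning is not given. There was no repeated pool at an age, so the 5 ages served as the replicates of a group (n = 5) and each SD and standard error (SE) also covers the change with age. Copy number and strain differ together between C3 and C22.

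Potassium channels set the resting potential of a cell and end its electrical activity. In myelinated nerve, channels of the Kv1 family, built from Kcna subunits with cytoplasmic Kcnab subunits, sit in the axon membrane beneath the myelin next to the node, while glial cells use inward rectifiers of the Kcnj family to take up the potassium that firing axons release. Channels with 2 pore domains (Kcnk) carry a background leak, and Kcnn channels open when calcium rises inside the cell. The cell bodies of the axons lie outside the nerve, so the RNA measured here comes mostly from Schwann cells, fibroblasts, perineurial, vascular, immune and fat cells, with only what RNA the axons hold.

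The stretches just before the start of 3 members are shown because these members carried the strongest differences: Kcnj10 rose most in both models, Kcnk10 rose in both and was the member called lower without c-Jun, and Kcnf1 fell in C22 and not in C3. Each is 250 bases of GRCm39 cut from the genome upstream of the start of the canonical GENCODE M39 transcript, 5′ to 3′ on the strand of the gene, with CG dinucleotides in capitals. The window of Kcnj10 is chr1:172168515-172168764 on the plus strand, that of Kcnk10 chr12:98544570-98544819 on the minus strand and that of Kcnf1 chr12:17226890-17227139 on the minus strand. The genes themselves span chr1:172168765-172201652, chr12:98395696-98544569 and chr12:17222101-17226889. The Kcnj10 gene shares exon sequence with Gm57153, a long non-coding RNA of the other strand, and whether that RNA reaches into the window was not examined.
Kcnj10: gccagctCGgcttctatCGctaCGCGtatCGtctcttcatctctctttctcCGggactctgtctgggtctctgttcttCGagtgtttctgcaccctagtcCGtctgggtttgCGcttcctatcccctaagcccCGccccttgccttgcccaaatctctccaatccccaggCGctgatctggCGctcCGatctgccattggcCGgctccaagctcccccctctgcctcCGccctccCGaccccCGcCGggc
Kcnk10: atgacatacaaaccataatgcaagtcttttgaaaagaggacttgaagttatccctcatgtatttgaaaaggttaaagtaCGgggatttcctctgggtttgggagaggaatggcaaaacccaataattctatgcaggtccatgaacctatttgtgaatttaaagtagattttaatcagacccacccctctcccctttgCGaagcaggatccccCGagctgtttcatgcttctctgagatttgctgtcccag
Kcnf1: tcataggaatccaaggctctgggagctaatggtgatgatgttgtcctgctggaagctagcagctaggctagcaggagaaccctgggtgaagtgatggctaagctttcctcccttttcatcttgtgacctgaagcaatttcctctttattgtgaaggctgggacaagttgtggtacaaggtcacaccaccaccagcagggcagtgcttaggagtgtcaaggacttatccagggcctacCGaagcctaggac
The Kcnj10 window held 18 CG dinucleotides at a GC content of 62.8%, whereas the Kcnk10 window held 3 at 42.4% and the Kcnf1 window 1 at 51.2%. The median was 10 over the 53 members and 12 over the same windows of 13979 protein-coding genes. The letters TGANTCA, an AP-1 motif of the kind bound by c-Jun dimers, were searched on both strands and occurred in 4.58% of all windows and in 0 of the 53 member windows. The related letters TGACGTCA occurred in 1.95% of all windows and in 0 member windows. The EGR motif GTGGGCG was found in 10.4% of all windows and in 2 members, Kcnh1 and Kcnmb4, and the SOX motif AACAATG in 1.99% of all windows and in 0 members.

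Levels from here on are CPM scaled by the TMM method, which adjusts library sizes for differences in composition, except the means of antisense transcripts, which are unscaled CPM. Myelinating Schwann cell markers, Mbp and Prx among them, summed to 26133 to 39332 CPM in C22, 47344 to 96300 in WT-C22, 39701 to 59136 in C3 and 59029 to 101718 in WT-C3. Of the 10 markers, 2 were higher and 4 lower in C22, and 2 higher and 2 lower in C3. These sums were lower in all C22 libraries than in all WT-C22 libraries, and their part in the members' changes was not tested. The depth was uneven. Between 2140142 and 49072746 counts fell on genes per library (median 24663235), and the lowest was the C3 library of 9 weeks, in which 19 of the 53 members had 3 counts or fewer. Without it, 10 members were called in C3, 6 in the difference between the models, 1 without c-Jun, 24 for the age slope and 9 by splines. Human PMP22 reached 7870 to 16320 CPM in the libraries of the 3 transgenic groups and at most 6.41 CPM in those of the controls. Its RNA was not higher in C22, at 9776 to 13906 CPM (median 12120.6), than in C3, at 10061 to 13967 CPM (median 13334.5). Jun ran from 26.3 to 31.7 CPM in the C3-PMP22 c-JunP0Cre libraries and from 94.0 to 122 CPM in C3 (edgeR log2 fold change -1.90, SE 0.089, adjusted p = 6.08e-07). Skeletal muscle markers were the least even of the cell type lists: their sum ran from 7.73 to 9495 CPM over the libraries, and Kcnj11, a pore subunit of ATP-sensitive channels in muscle, had its highest levels of 5.72, 5.09 and 4.33 CPM in the libraries with the highest sums (WT-C22 at 5 weeks, C3 at 12 weeks and WT-C3 at 5 weeks). Kcnc4 was also highest in those 3 libraries, with 2.44, 3.24 and 3.15 CPM, and neither gene was called in any comparison of groups. The part of muscle RNA in their levels was not tested.

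Per kilobase of exon, 5 members stood above the rest. Kcnk1, which encodes the leak channel TWIK1, averaged 46.1 CPM per kb over the 25 libraries. Kcna2 averaged 42.3, Kcna1 29.1 and Kcna6 27.2 CPM per kb, and these encode Kv1 pore subunits. Kcnj10, the glial inward rectifier Kir4.1, averaged 15.5 CPM per kb, but its group means ran from 0.980 ± 0.649 CPM per kb in WT-C22 and 1.44 ± 0.654 in WT-C3 to 37.6 ± 8.12 in C22 (SD, n = 5). Next came Kcnk5 with 10.7, Kcnmb4 with 7.27 and Kcnh2 with 7.02 CPM per kb. The single-library levels of Kcnj10 spanned 95.3-fold, those of Kcna1 8.77-fold, and those of Kcna2 2.35-fold. Kcna1, Kcna5 and Kcna6 are neighbours on chromosome 6, and of these Kcna5 stayed between 2.09 and 7.07 CPM and passed no comparison.

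**Figure D1:**
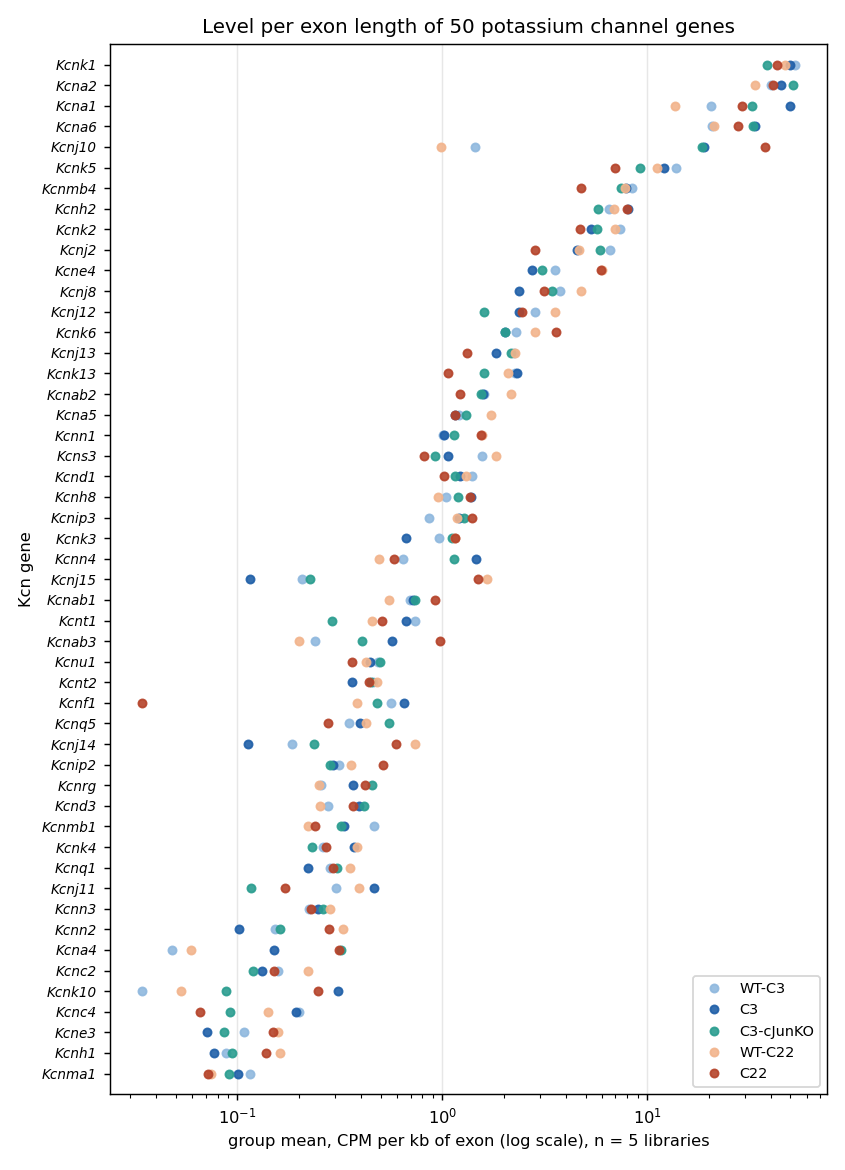
Group means of 50 of the 53 members, in TMM-scaled CPM per kb of exon on a log scale, with 1 point per group (n = 5 libraries) and genes ordered by their mean over all libraries. The widest gaps between groups are those of Kcnj10, with means of 0.98 and 1.44 CPM per kb in the controls against 37.6 in C22, and of Kcnf1, whose C22 point lies far below the others.

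The first question was which potassium channel genes differ in nerves that carry extra human PMP22. In C3, 10 of 53 members passed (adjusted p under 0.05 by the quasi-likelihood test of edgeR, adjusted over all genes tested), with 7 higher and 3 lower than in WT-C3. That is 18.9% of the members, beside 20.4% of all 16465 genes tested (10.7% higher and 9.71% lower). In C22, 24 passed, 11 higher and 13 lower than in WT-C22, which is 45.3% of the members beside 38.3% of all 16464 genes tested (20.0% higher and 18.3% lower). The members' median log2 fold change was -0.02 in C3 and -0.14 in C22, beside -0.00 and 0.01 over all genes. With library sizes alone as the scaling 28 passed in C22, 16 higher and 12 lower, beside 35.5% higher and 11.3% lower of all genes, since the members' log2 fold changes then rose by a median of 0.17. Kcna1, Kcna4, Kcna6, Kcnab3, Kcnj10 and Kcnk10 were higher in both models, Kcnj2, Kcnj8 and Kcnk2 were lower in both, and 0 members were called in opposite directions. The other 28 members were called in neither model.

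**Figure D2:**
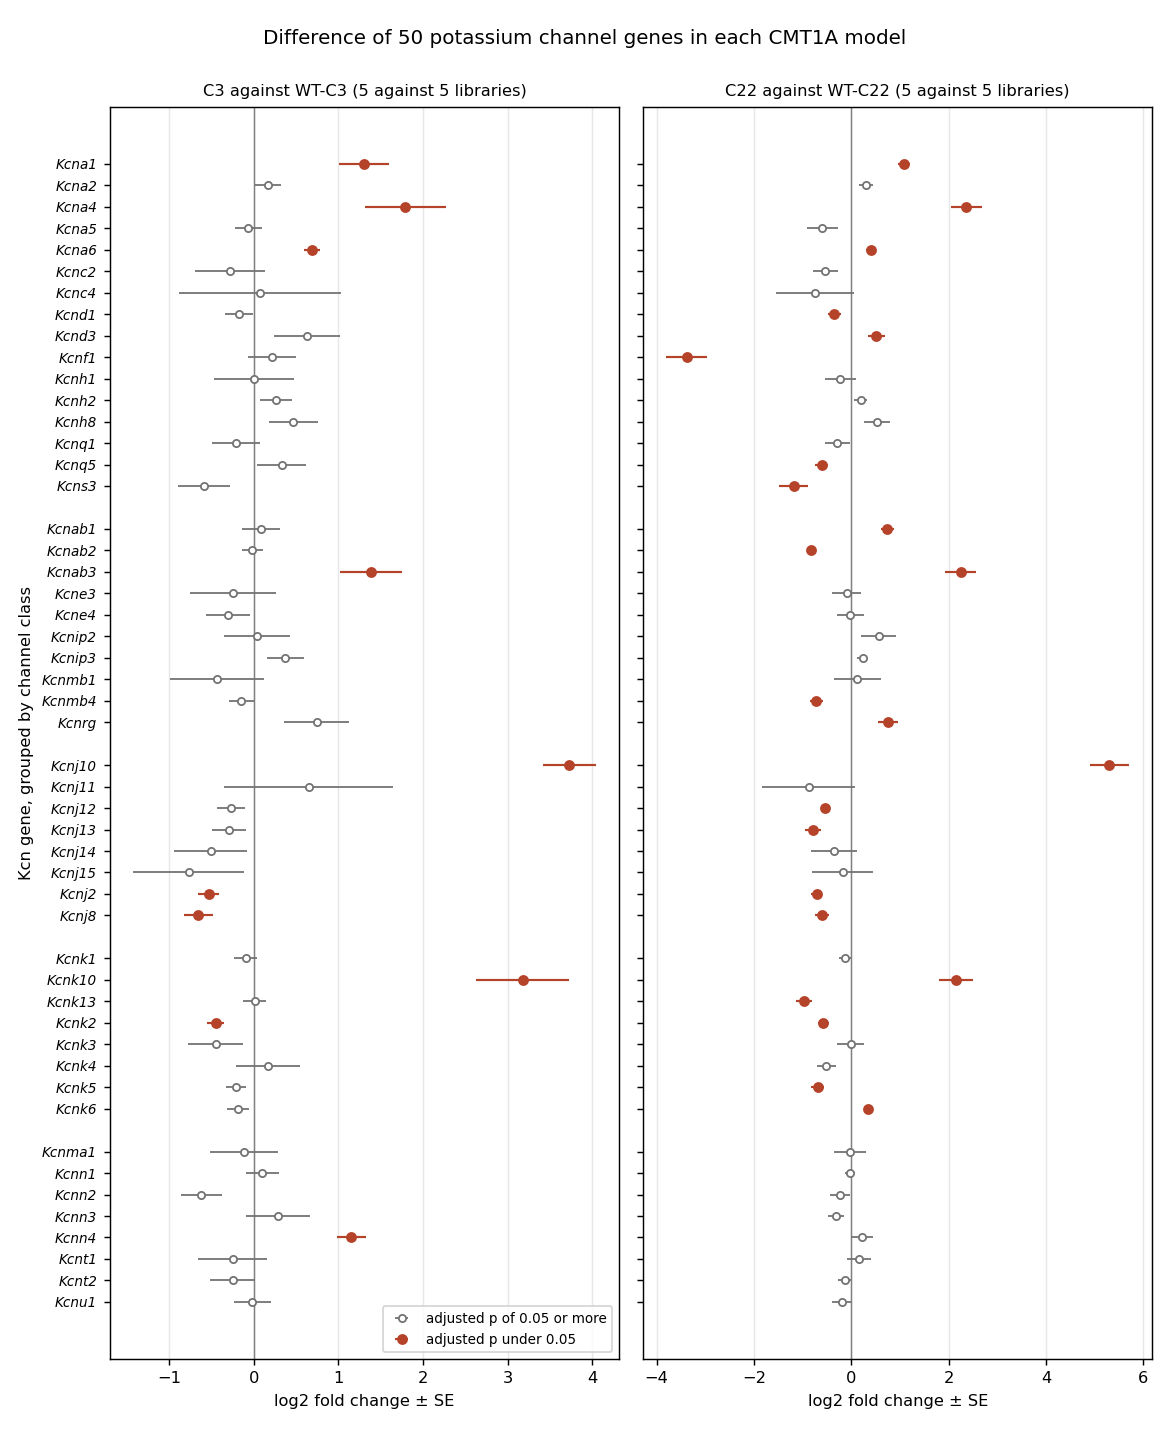
Log2 fold change ± SE of 50 of the 53 members in C3 against WT-C3 and in C22 against WT-C22 (5 against 5 libraries each), with red points where the adjusted p was under 0.05. The panels have different horizontal scales. Kcnj10 lies farthest to the right in both, at 3.73 and 5.30, and Kcnf1 at -3.38 is the leftmost point of the C22 panel.

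Among the 19 voltage-gated pore subunits, 3 rose in C3 and 0 fell, and 5 rose and 4 fell in C22. Kcna1 encodes Kv1.1 of the axonal juxtaparanode. The gene lies at chr6:126617360-126623347 on the minus strand of GRCm39. Its levels in C3 were 445, 253, 159.7, 143 and 193 CPM from 3 to 12 weeks, and in WT-C3 96.4, 89.9, 77.3, 148 and 75.8 CPM (log2 fold change 1.30, SE 0.30, adjusted p = 0.00941). The 3-week C3 library was the highest of all, and the groups overlapped because WT-C3 at 9 weeks exceeded C3 at the same age. In C22 the levels were 125, 134, 134, 137 and 163 CPM, and in WT-C22 63.2, 50.7, 62.6, 86.4 and 64.4 CPM (log2 fold change 1.08, SE 0.13, adjusted p = 5.12e-05). Here every C22 library lay above every control library. Kcna6, the Kv1.6 subunit, was also higher at 5 of 5 ages in both models, at 199 ± 24.8 CPM in C3 against 124 ± 8.73 in WT-C3 (log2 fold change 0.69, SE 0.094, adjusted p = 5.48e-04) and at 166 ± 19.7 in C22 against 125 ± 15.7 in WT-C22 (log2 fold change 0.40, SE 0.10, adjusted p = 0.00904). Its groups did not overlap in C3, while the lowest C22 library, 137 CPM at 9 weeks, was below the highest WT-C22 library.

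Kcna2, the Kv1.2 subunit that pairs with Kv1.1 in the axon, had the highest CPM of the set and was not called in either model. Its levels were 473 to 853 CPM in C3 and 448 to 614 in WT-C3, and the 95% interval of the log2 difference, as all intervals here not adjusted for the number of genes, was -0.14 to 0.47 (adjusted p = 0.486). In C22 they were 449 to 688 CPM and in WT-C22 363 to 548, with an interval of 0.02 to 0.58 (adjusted p = 0.125). Kcna4, the fast-inactivating Kv1.4 subunit, was near the detection limit in controls, with 17 counts in all over the WT-C3 libraries and 38 over the WT-C22 libraries, against 129 in C3 and 213 in C22. Its levels in C22 were 0.952, 1.51, 1.69, 1.62 and 2.36 CPM, all above the 0.347, 0.212, 0.330, 0.471 and 0.176 CPM of WT-C22 (log2 fold change 2.37, SE 0.32, adjusted p = 1.38e-04). In C3 they were 1.17, 1.17, 0.843, 0 and 0.739 CPM against 0.234, 0.158, 0.228, 0.0796 and 0.549 in WT-C3 (log2 fold change 1.79, SE 0.48, adjusted p = 0.0201), with the 0 in the shallow library of 9 weeks. The C3 call was lost without the C3 library of 5 weeks or the WT-C3 library of 9 weeks (adjusted p up to 0.0542). Leaving out 1 library at a time, the log2 fold change in C3 ran from 1.57 to 2.39, the latter without the WT-C3 library of 12 weeks.

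The other voltage-gated members that passed did so in C22. Kcnf1 encodes the silent modulatory subunit Kv5.1, which forms channels only with partners of the Kv2 family. Its levels in C22 were 0.204, 0, 0.324, 0.180 and 0.114 CPM, with 23 counts over the group, and in WT-C22 1.66, 1.80, 1.98, 2.43 and 1.31 CPM, with 222 counts (log2 fold change -3.38, SE 0.42, adjusted p = 7.69e-05). The groups were far apart at all ages. In C3 Kcnf1 stood at 3.44, 3.43, 3.37, 3.21 and 2.18 CPM and in WT-C3 at 1.17, 3.70, 2.51, 2.47 and 3.54 CPM, so the groups overlapped (adjusted p = 0.633). Kcns3, a second silent subunit, averaged 6.15 ± 2.32 CPM in C22 against 13.9 ± 4.94 in WT-C22 (log2 fold change -1.18, SE 0.30, adjusted p = 0.00886), lower at 5 of 5 ages although both groups rose with age and overlapped. Kcnq5, a subunit of the slow M current, was lower at 2.13 ± 0.161 against 3.26 ± 0.337 CPM (log2 fold change -0.61, SE 0.13, adjusted p = 0.00376), without overlap.

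The Kv4 genes Kcnd3 and Kcnd1 passed narrowly in C22, with log2 fold changes of 0.51 (SE 0.17, adjusted p = 0.037) and -0.35 (SE 0.13, adjusted p = 0.0463), and 7 and 8 of the 10 fits that leave out 1 library lost the call (adjusted p up to 0.0941 and 0.107). Of the remaining 10 voltage-gated members, Kcna2 and Kcna5 included, Kcnh2 (hERG) and Kcnh8 had means of 36.4 and 7.20 CPM over the 25 libraries, and none of the 10 passed in either model.

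Auxiliary subunits and regulators numbered 10 members, of which 1 rose in C3, and 3 rose and 2 fell in C22. The 3 Kvβ genes, whose proteins bind Kv1 channels from inside the cell, differed among themselves in C22. Kcnab3 was at 4.76, 2.91, 3.42, 1.91 and 3.04 CPM in C22 and 1.16, 0.424, 0.454, 0.707 and 0.527 CPM in WT-C22 (log2 fold change 2.25, SE 0.31, adjusted p = 1.84e-04), with no overlap. In C3 it was at 3.11, 1.52, 2.23, 0.917 and 1.56 CPM against 1.25, 0.709, 1.02, 0.318 and 0.610 CPM (log2 fold change 1.38, SE 0.37, adjusted p = 0.0198), higher at each age, and the call was lost without the C3 library of 3 or of 7 weeks (adjusted p up to 0.0524). Kcnab1 was higher in C22, at 11.5 ± 1.66 against 6.87 ± 0.995 CPM (log2 fold change 0.74, SE 0.13, adjusted p = 9.48e-04). Kcnab2 was lower in C22, at 12.6, 11.8, 10.7, 13.5 and 11.8 CPM against 23.7, 22.8, 20.7, 20.0 and 19.9 CPM (log2 fold change -0.82, SE 0.091, adjusted p = 3.22e-05), and every C22 library lay below every WT-C22 library. In C3 and WT-C3 it stood at 11.6 to 17.5 and 13.8 to 17.7 CPM, with a log2 difference of -0.02 (SE 0.12, adjusted p = 0.941).

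Kcnmb4, the β4 subunit of the large calcium-activated channel, was lower in C22, at 28.4 ± 5.57 against 46.5 ± 6.45 CPM (log2 fold change -0.71, SE 0.13, adjusted p = 0.00133), without overlap. Kcnrg, a regulator that hinders Kv1 channel assembly, was higher, at 1.16 ± 0.127 against 0.690 ± 0.154 CPM (log2 fold change 0.75, SE 0.20, adjusted p = 0.0127). Some of these genes share exon sequence with transcripts of the other strand. Kcnab2 shares up to 402 bases with Chd5 (8.50 CPM) and up to 280 bases with Nphp4 (27.1 CPM). Kcnab1 shares up to 83 bases with A330015K06Rik (14.4 CPM), and Kcnrg up to 393 bases with Dleu2 (59.7 CPM). The library kit keeps strand, but whether the counting used it is not given in the sources used here, so reads of these genes and their antisense partners may not be told apart. Kcne3, Kcne4, Kcnip2, Kcnip3 and Kcnmb1 passed in neither model.

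Of the 8 inward rectifiers, 1 rose and 2 fell in C3, and 1 rose and 4 fell in C22. Kcnj10, the Kir4.1 channel by which glia clear potassium, showed the greatest rise of the set. In WT-C3 its levels were 12.9, 9.38, 7.74, 4.62 and 4.39 CPM from 3 to 12 weeks, and in C3 149.6, 120.4, 94.8, 85.7 and 62.8 CPM (log2 fold change 3.73, SE 0.31, adjusted p = 3.17e-05), which is 13.3-fold. In WT-C22 they were 10.5, 7.52, 3.10, 2.87 and 2.61 CPM, and in C22 249, 236, 214, 139.9 and 181 CPM (log2 fold change 5.30, SE 0.41, adjusted p = 1.95e-06), which is 39.5-fold. Both models were above their controls at every age, and the lowest library of C3 or C22 held 62.8 CPM against 12.9 CPM in the highest control library. Even the shallow C3 library held 187 counts, more than the highest WT-C3 library with 165. Of 8 tested markers of repair or immature Schwann cells, 7 were higher in C3, and 5 were higher and 2 lower in C22. Their sums were 419 to 574 CPM in C3, 204 to 271 in WT-C3, 247 to 364 in C22 and 203 to 277 in WT-C22. The median sums were 500 against 246 CPM in C3 and 331 against 206 CPM in C22, a smaller gap in C22. The part of these cells in the rise of Kcnj10 was not tested. Kcnj10 overlaps 84 exonic bases of the antisense transcript Gm57153, which averaged 0.384 CPM.

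Among the Kir2 genes, whose channels hold cells near the potassium equilibrium, Kcnj2 was lower in both models and Kcnj12 in C22. Kcnj2 stood at 22.5, 20.4, 28.1, 22.5 and 30.2 CPM in C3 against 39.8, 29.9, 37.2, 36.1 and 37.7 CPM in WT-C3 (log2 fold change -0.53, SE 0.12, adjusted p = 0.0104), and the groups overlapped in 1 pair of libraries of different age. In C22 it was at 13.4, 13.5, 15.9, 15.3 and 19.6 CPM against 21.0, 28.4, 27.5, 23.8 and 26.7 CPM (log2 fold change -0.71, SE 0.12, adjusted p = 5.98e-04), with all C22 libraries below all controls. Kcnj12 was lower in C22 at 14.9 ± 1.07 against 21.8 ± 1.77 CPM (log2 fold change -0.54, SE 0.081, adjusted p = 2.91e-04). Kcnj8, the pore subunit of the ATP-sensitive channel of mural cells, was lower at 8.96 ± 2.01 against 14.1 ± 2.23 CPM in C3 (log2 fold change -0.65, SE 0.18, adjusted p = 0.0207) and at 11.9 ± 1.15 against 17.9 ± 4.06 CPM in C22 (log2 fold change -0.61, SE 0.14, adjusted p = 0.006). The C3 call of Kcnj8 was lost without the C3 library of 5 weeks (adjusted p = 0.0581). Kcnj13 was lower in C22, at 8.25 ± 1.53 against 14.0 ± 2.88 CPM (log2 fold change -0.78, SE 0.17, adjusted p = 0.00309), and shares up to 355 exonic bases with the antisense gene Gigyf2 (86.3 CPM).

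In bulk RNA, fewer cells of a type and less RNA per cell cannot be told apart. Markers of vessel and perineurial cells are given beside the lower members. Of all genes tested, 10.7% were higher and 9.71% lower in C3, and 20% higher and 18.3% lower in C22. Of 10 mural cell genes, 1 was higher and 3 were lower in C3, and 6 were lower in C22. Their summed level ran from 955 to 1708 CPM in C3, 1474 to 1806 in WT-C3, 810 to 1442 in C22 and 1329 to 2121 in WT-C22. Of 10 endothelial genes 1 was lower in C3 and 6 in C22 (476 to 755 CPM summed in C22, 650 to 949 in WT-C22). Of 8 perineurial genes 6 were lower in C3 and 7 in C22, where they summed to 977 to 1242 CPM against 1429 to 2222 in WT-C22. Abcc9, the partner of Kcnj8 in vessels and named here after its values were seen, was lower in C22 (log2 fold change -0.58, SE 0.16, adjusted p = 0.0124). It was not called in C3, where Kcnj8 was. No mural marker was at 0, and the part of these cells in the lower levels of Kcnj8, Kcnj2 and Kcnj12 was not tested.

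Of the 8 two-pore-domain members, 1 rose and 1 fell in C3, and 2 rose and 3 fell in C22. Kcnk10 and Kcnk2 encode TREK2 and TREK1, closely related channels that open with stretch and membrane lipids, and they moved in opposite directions. Kcnk10 was at 2.52, 2.88, 2.01, 4.58 and 1.52 CPM in C3, and at 0.234, 0.315, 0.797, 0.159 and 0 CPM in WT-C3, where only 16 counts fell on it over the 5 libraries (log2 fold change 3.18, SE 0.55, adjusted p = 0.00222). The log2 fold change was 3.82 without the WT-C3 library of 7 weeks, the highest of its group. In C22 it was at 3.03, 1.75, 2.16, 1.62 and 2.32 CPM against 1.00, 0.212, 0.372, 0.393 and 0.351 CPM (log2 fold change 2.15, SE 0.34, adjusted p = 4.84e-04). The transgenic and control groups did not overlap in either model. Kcnk2 stood at 30.1, 25.8, 26.2, 25.2 and 26.6 CPM in C3 and 37.9, 31.9, 31.7, 40.0 and 42.6 CPM in WT-C3 (log2 fold change -0.45, SE 0.099, adjusted p = 0.0077), and averaged 23.6 ± 2.24 in C22 against 35.0 ± 5.50 CPM in WT-C22 (log2 fold change -0.57, SE 0.11, adjusted p = 0.0015). These groups did not overlap either.

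Kcnk13, the THIK1 leak channel known from microglia, was lower in C22 at 5.98, 6.51, 5.61, 3.94 and 4.56 CPM against 12.9, 11.7, 9.33, 10.1 and 8.16 CPM (log2 fold change -0.97, SE 0.16, adjusted p = 6.80e-04). In C3 and WT-C3 its ranges of 8.50 to 13.8 and 10.1 to 12.2 CPM lay over each other (log2 difference 0.01, SE 0.14, adjusted p = 0.968). Of 10 macrophage markers, 0 were higher and 1 lower in C3, and 1 higher and 2 lower in C22, where they summed to 364 to 559 CPM against 423 to 639 in WT-C22. Kcnk5 (TASK2) was lower in C22, at 23.8 ± 2.02 against 38.4 ± 8.50 CPM (log2 fold change -0.69, SE 0.14, adjusted p = 0.00216), and Kcnk6 (TWIK2) was higher, at 15.3 ± 1.11 against 12.0 ± 1.13 CPM (log2 fold change 0.34, SE 0.091, adjusted p = 0.011). Kcnk1, the member with the highest level per kb, was at 98.3 to 159 CPM in C3, 109.5 to 167 in WT-C3, 90.1 to 134 in C22 and 88.3 to 128 in WT-C22, and passed in neither model.

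Of the 8 calcium- or sodium-activated and related pore subunits, 1 rose in C3 and 0 passed in C22. Kcnn4 encodes the intermediate-conductance calcium-activated channel of immune cells and erythrocytes. Its levels in C3 were 8.32, 14.3, 12.0, 12.8 and 9.81 CPM, each above the 3.67, 5.36, 5.35, 5.73 and 5.37 CPM of WT-C3 (log2 fold change 1.15, SE 0.18, adjusted p = 0.00104). In C22 it was at 4.52, 3.64, 4.17, 5.56 and 5.10 CPM and in WT-C22 at 4.09, 1.91, 3.80, 4.01 and 5.50 CPM (adjusted p = 0.470), with a 95% interval of -0.22 to 0.66 for the log2 difference. The SK genes Kcnn1, Kcnn2 and Kcnn3, the large-conductance gene Kcnma1, the sodium-activated genes Kcnt1 and Kcnt2, and Kcnu1 passed in neither model.

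**Figure D3:**
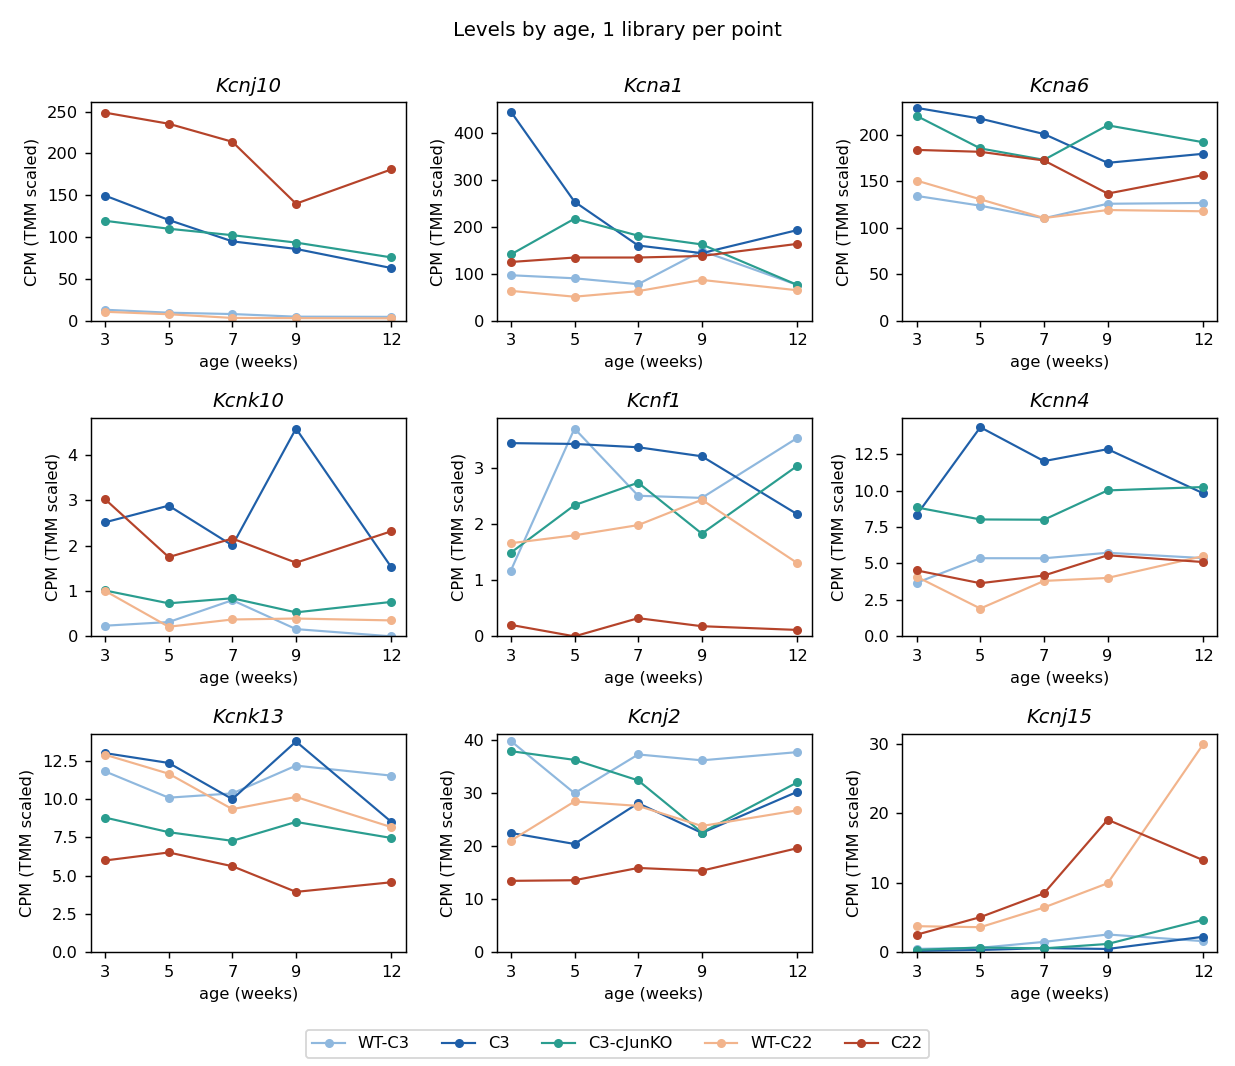
Level of 9 members by age in weeks, in TMM-scaled CPM, with 1 library per point and the points of a group joined. The C3 and C22 lines of Kcnj10 run far above both control lines at all 5 ages, the C22 line of Kcnf1 stays at or under 0.324 CPM, and the line of Kcnk10 in C3 without c-Jun (C3-cJunKO) lies below that of C3 throughout.

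Whether a change was of another size in C22 than in C3 was tested as the difference between both changes, over 20 libraries. Of 53 members 5 passed (9.43%, beside 10.2% of all 16472 genes), 1 with a higher change in C22 and 4 with a lower one, beside 4.07% and 6.11% of all genes. The change of Kcnf1 was lower in C22, with a difference of -3.61 (SE 0.51, adjusted p = 6.88e-05) on the log2 scale, and those of Kcnk13, Kcnn4 and Kcnab2 were lower by differences of -1.01 (SE 0.22, adjusted p = 0.00445), -0.96 (SE 0.29, adjusted p = 0.0389) and -0.83 (SE 0.15, adjusted p = 0.00105). Kcnk6 had a difference of 0.51 (SE 0.14, adjusted p = 0.0262), set by a higher level in C22 and a log2 change of -0.19 in C3 that did not pass. The call of Kcnn4 was lost in 14 of the 20 fits that leave out 1 library (adjusted p up to 0.0937) and that of Kcnk6 in 3 of 20. Beside Kcnf1, markers of neurons were lower in C22: 7 of 7 tested of 10 listed genes, Nefl and Snap25 among them, with sums of 17.2 to 24.8 CPM against 53.9 to 62.4 in WT-C22. In C3 the same list had 1 higher and 3 lower and sums of 68.4 to 86.2 CPM against 61.7 to 90.0, with a median log2 fold change of -0.71. Tubb3 made up much of the C3 sums, with a mean of 29.3 CPM in C3 and 4.05 in WT-C3, whereas Nefl had means of 6.23 and 9.61 CPM and Stmn2 13.4 and 20.0 CPM. The part of this list in the result of Kcnf1 was not tested.

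For Kcnj10 the difference was 1.55 (SE 0.51, adjusted p = 0.056) with a 95% interval of 0.56 to 2.55, so the greater rise in C22 did not pass, although it did in 5 of 9 other ways of fitting. For Kcna1 the difference was -0.24 (SE 0.35, adjusted p = 0.755), with an interval of -0.92 to 0.44. For Kcnk10 the interval was -2.40 to 0.29 (adjusted p = 0.398). Besides Kcnf1, Kcnab2, Kcnk13 and Kcnk6, 11 members were called in C22 and not in C3, and since 0 of these passed the test of the difference they are not shown to differ between the models.

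The comparison of C3-PMP22 c-JunP0Cre with C3 addresses which genes differ when c-Jun is lost from Schwann cells in nerves with extra PMP22. It uses the same C3 libraries as the comparison above. Of 53 members 1 passed and it was lower, beside 0.607% of all 16465 genes (100 genes), 0.237% higher and 0.370% lower. This was Kcnk10, at 1.01, 0.729, 0.840, 0.529 and 0.760 CPM without c-Jun against 2.52, 2.88, 2.01, 4.58 and 1.52 CPM in C3 (log2 fold change -1.65, SE 0.28, adjusted p = 0.0183). All 5 libraries without c-Jun lay below all 5 C3 libraries, and above the WT-C3 mean of 0.301 CPM. They overlapped with WT-C3, whose library of 7 weeks, at 0.797 CPM, exceeded those of 5, 9 and 12 weeks without c-Jun. The call rests on few counts, 100 over the group without c-Jun and 305 in C3, and it was lost without the library of 5, 7 or 9 weeks of the group without c-Jun or the C3 library of 5 weeks (adjusted p up to 0.0739). Among the repair Schwann cell markers 1 of 8 tested was lower without c-Jun, with sums of 303 to 361 CPM against 419 to 574 in C3.

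Kcnj10 was not called. It stood at 119, 109.9, 102, 93.3 and 75.5 CPM without c-Jun, beside the 149.6, 120.4, 94.8, 85.7 and 62.8 CPM of C3, and the 95% interval of the log2 difference was -0.43 to 0.35 (adjusted p = 1.00). Kcna1 was at 141, 217, 181, 162 and 75.8 CPM without c-Jun, lower than C3 at 3 of 5 ages, with an interval of -1.26 to 0.01 (adjusted p = 0.715). Kcna4 was at 1.54, 1.49, 1.42, 2.07 and 1.77 CPM without c-Jun, above C3 at 5 of 5 ages, and did not pass (adjusted p = 0.369). Kcnt1, a sodium-activated channel gene, was at 1.65, 3.25, 2.48, 3.25 and 5.35 CPM against 3.83, 8.03, 6.18, 11.0 and 7.68 CPM in C3, lower at 5 of 5 ages with overlap between the groups. Libraries of the same age deviated together in this comparison, and with age as a replicate block 2 members passed, Kcnk10 and Kcnt1, while the calls over all genes rose from 100 (39 higher) to 330 (192 higher).

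**Figure D4:**
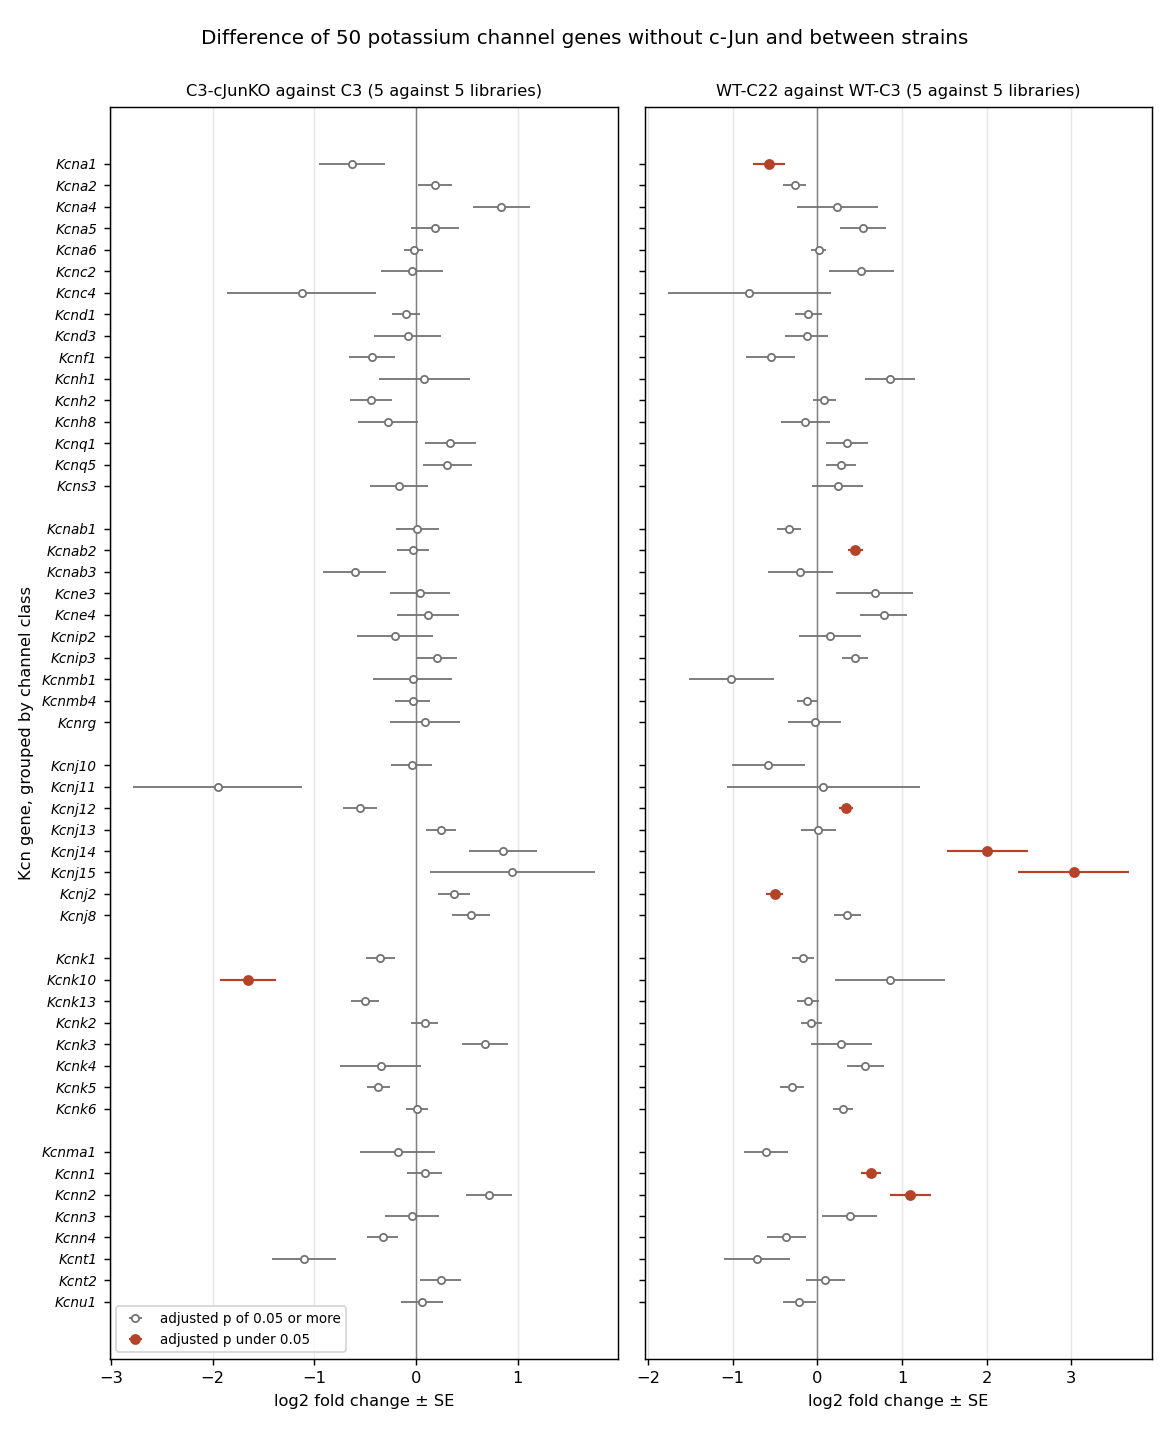
Log2 fold change ± SE of 50 of the 53 members in C3-PMP22 c-JunP0Cre (C3-cJunKO) against C3 and in WT-C22 against WT-C3 (5 against 5 libraries each), with red points where the adjusted p was under 0.05. Kcnk10 at -1.65 is the only red point of the left panel, and those of the right panel reach from -0.57 for Kcna1 to 3.03 for Kcnj15.

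The control strains differed as well, which bears on any comparison of levels between C3 and C22. Between FVB/NRJ and C57BL/6J controls, 8 of 53 members passed (15.1%, beside 21.3% of all 16468 genes), 6 higher and 2 lower in FVB/NRJ, beside 9.78% and 11.5% of all genes. Kcnj15, the Kir4.2 subunit, was at 3.74, 3.60, 6.44, 9.94 and 30.0 CPM in WT-C22 and 0.469, 0.630, 1.48, 2.55 and 1.59 CPM in WT-C3 (log2 fold change 3.03, SE 0.66, adjusted p = 0.00571), and the log2 fold change was 2.16 without the WT-C22 library of 12 weeks. Kcnj14, the Kir2.4 subunit, was at 1.12, 0.635, 2.07, 2.43 and 3.72 CPM against 0.391, 0.236, 0.570, 0.398 and 0.914 CPM (log2 fold change 2.01, SE 0.48, adjusted p = 0.00985). Only 33 counts fell on Kcnj14 over the WT-C3 libraries, 1 of which held 3 counts or fewer, against 295 over the WT-C22 libraries. Kcnn2 and Kcnn1 encode small-conductance calcium-activated channels. Kcnn2 was 2.14-fold higher (SE of the log2 fold change 0.24, adjusted p = 0.0065), at 3.70 ± 1.13 against 1.72 ± 0.464 CPM. Kcnn1 was higher with a log2 fold change of 0.64 (SE 0.12, adjusted p = 0.00223), and Kcnab2 and Kcnj12 with 0.45 (SE 0.089, adjusted p = 0.00334) and 0.34 (SE 0.086, adjusted p = 0.0144). Kcnj2 was lower in FVB/NRJ with a log2 fold change of -0.50 (SE 0.10, adjusted p = 0.00339), as was Kcna1 with a log2 fold change of -0.57 (SE 0.19, adjusted p = 0.0476), whose call was lost in 7 of 10 fits without 1 library. Kcnj10 was low in both strains (log2 difference -0.58, SE 0.43, adjusted p = 0.384). Adipocyte markers were higher in FVB/NRJ for 5 of 10 genes, with sums of 1914 to 5979 CPM against 1699 to 3485 in C57BL/6J.

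Age was tested as a slope in log2 per week shared by the 5 groups. It passed for 22 of 53 members (41.5%, beside 27.4% of all 16472 genes), 10 rising and 12 falling, beside 13.4% and 14.0% of all genes. The steepest rise was that of Kcnj15, at 0.34 (SE 0.031, adjusted p = 6.70e-08) per week, whose median over the groups went from 0.469 CPM at 3 weeks to 4.67 CPM at 12 weeks. Kcns3 rose at 0.14 (SE 0.016, adjusted p = 8.95e-07), from a median of 5.54 to one of 11.9 CPM, and Kcnj14 rose at 0.16 (SE 0.032, adjusted p = 4.14e-04). The auxiliary subunit gene Kcne4 rose at 0.11 (SE 0.020, adjusted p = 3.81e-04) and Kcnj13 at 0.07 (SE 0.011, adjusted p = 3.72e-05). All 5 of these were higher at 12 than at 3 weeks in 5 of 5 groups. Kcnq1, Kcnj8, Kcnt1 and Kcnh2 were also among those that rose. Kcnq1 shares up to 713 exonic bases with its antisense transcript Kcnq1ot1, which averaged 65.2 CPM, so its reads may not be told apart from those of Kcnq1ot1.

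Among the members that fell, Kcnj10 did so at -0.13 (SE 0.018, adjusted p = 9.43e-06) per week, and its median over the groups went from 119 to 62.8 CPM. Fitted as a straight line per group, its slope was -0.24 in WT-C22, -0.18 in WT-C3 and -0.14 in C3. It was -0.07 in both C22 and C3-PMP22 c-JunP0Cre, where it did not pass. Kcnh8, of the ether-a-go-go family, fell at -0.13 (SE 0.015, adjusted p = 9.92e-07), Kcnip2, a Kv4-binding calcium sensor, at -0.11 (SE 0.028, adjusted p = 0.00387), and Kcnab3 at -0.10 (SE 0.025, adjusted p = 0.00346). These 4 were lower at 12 than at 3 weeks in all 5 groups. Kcnab2, Kcnk13, Kcna6, Kcnd1, Kcnn3, Kcnk6 and Kcnmb4 fell more slowly. At 12 weeks Kcnj10 still held 62.8 CPM in C3 and 181 CPM in C22, above all control libraries. Summed adipocyte markers were higher at 12 than at 3 weeks in 5 of 5 groups, for example 3473 against 492 CPM in C3, and those of perineurial and endothelial cells were also higher in 5 of 5. Summed markers of fibroblasts, of myelinating Schwann cells and of repair or immature Schwann cells were lower at 12 than at 3 weeks in 5 of 5 groups, for example 7810 against 18739.6 CPM for fibroblasts and 39701 against 59136 CPM for myelinating Schwann cells in C3. The part of these cell types in the slopes was not tested. With the 10 control libraries alone 10 members passed, 9 of them among the 22, and the slopes of Kcnk6 and Kcnmb4 were lost in 14 and 17 of the 25 fits that leave out 1 library (adjusted p up to 0.0999 and 0.132). With library sizes alone as the scaling, 15 rose and 5 fell, beside 21.6% rising and 7.78% falling of all genes.

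**Figure D5:**
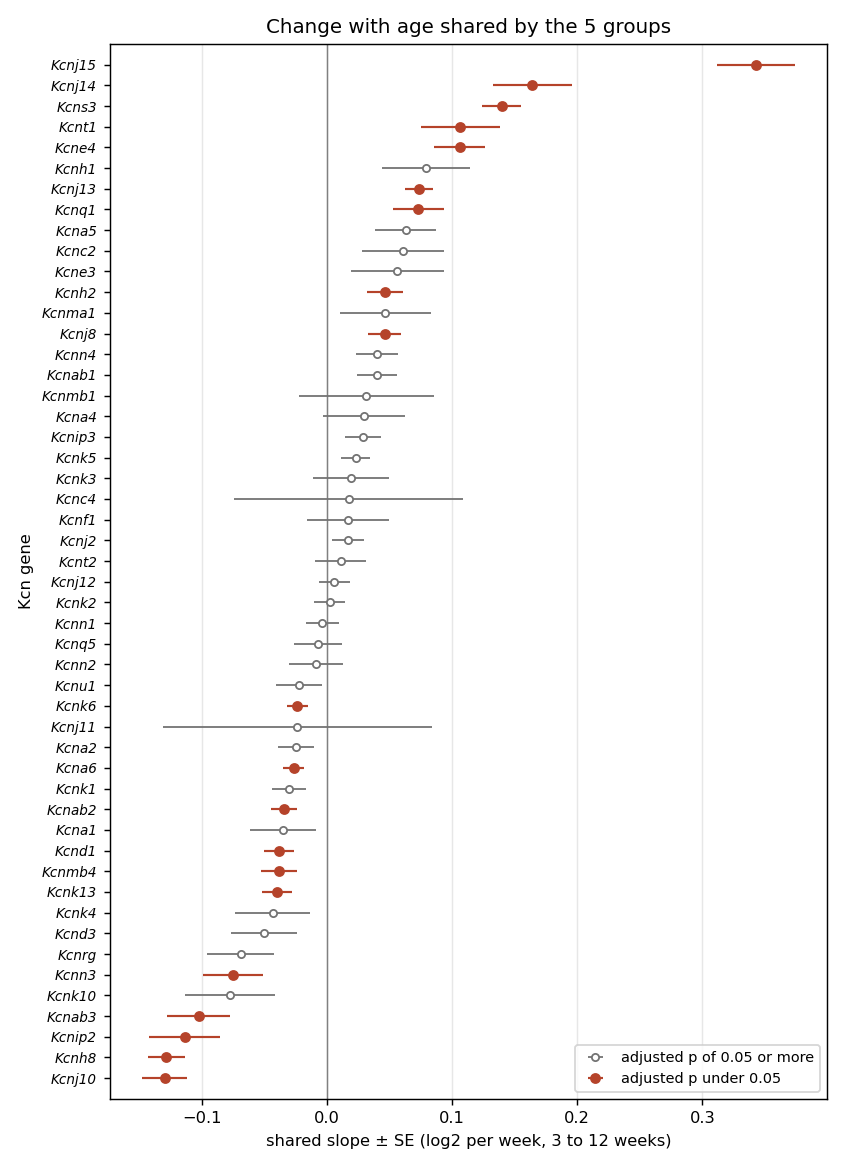
Slope with age shared by the 5 groups, in log2 per week ± SE over 25 libraries, for 50 of the 53 members in order of slope, with red points where the adjusted p was under 0.05. Kcnj15 rises most steeply at 0.34 per week, and Kcnj10 and Kcnh8 both fall by 0.13 per week.

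A natural spline for each group, which also finds changes that are not straight, passed for 7 members in at least 1 group (13.2%, beside 5.58% of all genes). By group, 2 passed in C3-PMP22 c-JunP0Cre (3.11% of all genes), 4 in C3 (1.86%), 1 in WT-C3 (0.607%), 1 in C22 (0.534%) and 5 in WT-C22 (2.77%). Kcnj15 passed in all groups except WT-C3. Kcnj10 passed in C3, WT-C3 and WT-C22 (adjusted p = 0.0300, 0.0429 and 0.00475). Kcna1 passed in C3 (adjusted p = 0.0184), where it fell from 445 to 143 CPM by 9 weeks and stood at 193 at 12 weeks, and in C3-PMP22 c-JunP0Cre (adjusted p = 0.0345), where it peaked at 217 CPM at 5 weeks and ended at 75.8 CPM. Kcnh2 passed in C3, and Kcne4 and Kcns3 passed in WT-C22. With 1 library per age these curves rest on 5 points each.

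Genes that work with these channels were taken from lists, and their values are log2 fold changes. Their counts stand beside 20.4% of all genes called in C3 (10.7% higher and 9.71% lower) and 38.3% in C22 (20.0% higher and 18.3% lower). Of 13 tested of 15 listed genes (juxtaparanode proteins, Kv1 partners and their relatives), 4 were higher and 2 lower in C3. In C22, 4 were higher and 7 lower. Adam11 and Adam23, membrane partners of Lgi proteins, were higher in both: Adam11 by 2.43 (SE 0.21, adjusted p = 3.17e-05) and 1.58 (SE 0.14, adjusted p = 4.81e-06), and Adam23 by 1.11 (SE 0.14, adjusted p = 4.02e-04) and 1.84 (SE 0.10, adjusted p = 1.73e-07) on the log2 scale in C3 and C22. Adam22, a partner of Kv1 channels, was lower with a log2 fold change of -0.74 (SE 0.11, adjusted p = 7.55e-04) in C3 and -0.91 (SE 0.14, adjusted p = 3.06e-04) in C22, and Lgi1, a secreted ligand of this family, was lower with a log2 fold change of -1.29 (SE 0.13, adjusted p = 1.37e-05) in C22. Adam11 was also the list's member called without c-Jun, at 32.6 ± 9.80 against 94.5 ± 14.4 CPM (log2 fold change -1.52, SE 0.20, adjusted p = 0.00353). The scaffolds Cntn2 and Cntnap2, which anchor Kv1 at the juxtaparanode, were too low to be tested.

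Of 8 tested partner subunits and other channel genes outside the Kcn symbols, 1 was higher and 1 lower in C3. In C22, 1 was higher and 4 lower. Dpp6, the partner of Kv4 channels, was higher in C3 with a log2 fold change of 1.36 (SE 0.28, adjusted p = 0.00533) and lower in C22 with a log2 fold change of -1.87 (SE 0.27, adjusted p = 2.50e-04), and also differed between the controls (log2 fold change 1.73 (SE 0.23, adjusted p = 2.11e-04) in WT-C22 against WT-C3). The test of the difference gave -3.25 (SE 0.38, adjusted p = 8.69e-06). Amigo1, a Kv2 partner, was lower in C3 with a log2 fold change of -0.31 (SE 0.090, adjusted p = 0.0292). In C22 Tmem38b, a cation channel of the endoplasmic reticulum, was higher with a log2 fold change of 1.02 (SE 0.100, adjusted p = 1.35e-05) and Amigo1 was lower with a log2 fold change of -0.46 (SE 0.092, adjusted p = 0.00213).

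Of 12 tested genes of the sodium pump, 2 were higher and 0 lower in C3, and 3 higher and 2 lower in C22. Its β1 subunit gene Atp1b1 was higher in both models, with a log2 fold change of 0.90 (SE 0.22, adjusted p = 0.0124) and 1.40 (SE 0.10, adjusted p = 1.19e-06). In C22 the regulator Fxyd6 was higher with a log2 fold change of 0.88 (SE 0.11, adjusted p = 1.02e-04) and the β2 gene Atp1b2 lower with a log2 fold change of -0.60 (SE 0.094, adjusted p = 4.50e-04). Of 13 tested cotransporters and WNK kinases, 2 were higher and 0 lower in C3, and 3 higher and 5 lower in C22. Wnk2 was higher in both models, with a log2 fold change of 0.98 (SE 0.15, adjusted p = 9.69e-04) and 1.34 (SE 0.16, adjusted p = 4.97e-05), and lower without c-Jun with a log2 fold change of -0.53 (SE 0.11, adjusted p = 0.0473). Wnk3 was lower in C22 with a log2 fold change of -1.59 (SE 0.17, adjusted p = 2.97e-05), and Stk39, a kinase downstream of WNK, was higher with a log2 fold change of 0.84 (SE 0.13, adjusted p = 3.24e-04).

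The 4 HCN genes encode pacemaker channels that carry sodium and potassium. None passed in C3, and in C22 1 was higher and 3 were lower. Hcn3 was higher in C22 with a log2 fold change of 1.58 (SE 0.32, adjusted p = 0.00208) and Hcn4 was lower in C22 with a log2 fold change of -1.01 (SE 0.27, adjusted p = 0.0107).

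Over the 25 libraries, the genes whose order of levels was most like that of Kcna1 were Ppp4r4, Reln, Dstyk, Abl2 and Htt, with Spearman correlations of 0.875, 0.871, 0.864, 0.860 and 0.850. Among the members the closest pairs were Kcne4 with Kcnj15 at 0.917 and Kcnab3 with Kcnj10 at 0.909. These values describe libraries that share groups, ages and strains, and carry no test.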

How the data were processed

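RNA was taken from whole sciatic nerve. Per the labels and the study's methods, stranded poly(A) libraries carried molecular barcodes, and the authors trimmed reads with cutadapt 2.10, aligned them with STAR 2.7.5a to GRCm39 joined to the human PMP22 locus, removed duplicates with UMI-tools 1.1.1 and counted genes with HTSeq 0.12.4 (FastQC 0.11.9 is also in the submitters' notes). The strand setting of the counting is not given in the sources used here. The deposited values are raw counts per gene, 1 column per library, and 0 columns were left unused. Summary lines without a gene held 13.5 to 17.4% of the counts of a library and were left out of library sizes. Symbols were matched to 56323 of 56941 mouse gene IDs, and 15 further genes were human. No 2 libraries were alike enough to be 1 library deposited more than once (highest correlation of log2 CPM 0.995).

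The quasi-likelihood test of edgeR 4.0.16 (R 4.3.3) was run on the whole table with TMM scaling among the libraries fitted, 1 term per group, and Benjamini-Hochberg adjustment over all genes with a mean of at least 0.5 CPM. That filter ignores group and replaces the stricter one of the study, which was run as an alternative. Age was fitted as 1 slope for all groups and as a natural spline with 3 degrees of freedom per group. DESeq2 1.42.0, other scalings, filters and tests, age as a replicate block and leaving out each library were alternatives, and the scripts were tested on simulated data. Since no pool was repeated, p-values measure the spread between ages. Counts limit precision: a level from 3 counts or fewer is at the floor, and counting error does not cover differences between mice.

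The ages pair libraries of C3 and C3-PMP22 c-JunP0Cre: deviations from the group means correlated at 0.41, 0.15, 0.30, 0.24 and 0.56 in order of age. In the other comparisons at least 1 age was under 0.1, although the control strains reached 0.33, 0.62, 0.16, 0.46 and 0.05 in order of age. Named with statistics are all members called in a comparison, Kcna1, the 10 smallest p of the age slope and at most 3 genes per partner list and model. Some uncalled members, the partner genes given in other comparisons and Abcc9 were added after values were seen. Members and lists were chosen with earlier results of these data known. Windows upstream of genes were cut from GRCm39 at GENCODE M39 starts. All comparisons that name the same group share its libraries. Some genes, 3 members among them, are counted in the totals but not reported here by name or in the plots.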

Additional observations from a re-analysis of the deposited data

Results flagged for a closer look

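In 13 of 150 sets of 5 libraries, formed by a group and 1 of 30 members described with statistics, the highest or lowest library stood apart by Dixon's criterion (gap over range above 0.71). That is 8.67%, where chance gives about 5%, and since the libraries of a group differ in age a library can stand apart through its age.

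Kcnj15 stood apart at 12 weeks in 3 groups, with 4.67 CPM in C3-PMP22 c-JunP0Cre (others 0.320 to 1.18), 2.22 CPM in C3 (others 0.180 to 0.582) and 29.97 CPM in WT-C22 (others 3.60 to 9.94). At 3 weeks, Kcnab2 was at 21.4 CPM in C3-PMP22 c-JunP0Cre (others 12.9 to 14.3), Kcnk10 at 1.00 CPM in WT-C22 (others 0.212 to 0.393), Kcnk2 at 30.1 CPM in C3 (others 25.2 to 26.6), Kcnn2 at 5.63 CPM in WT-C22 (others 2.83 to 3.60) and Kcnn4 at 3.67 CPM in WT-C3 (others 5.35 to 5.73). At 5 weeks, Kcnn2 was at 2.52 CPM in WT-C3 (others 1.37 to 1.67). At 9 weeks, Kcna1 was at 148 CPM in WT-C3 (others 75.8 to 96.4), Kcnn2 at 2.27 CPM in C22 (others 3.23 to 3.50) and Kcnq5 at 0.458 CPM in C3 (others 3.31 to 4.04), the last in the shallow library. At 12 weeks, Kcnf1 was at 2.18 CPM in C3 (others 3.21 to 3.44).

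For 5 members the change in C22 differed from that in C3 by the test of the difference in edgeR over 20 libraries: Kcnf1 by -3.61, Kcnk13 by -1.01, Kcnn4 by -0.96, Kcnab2 by -0.83 and Kcnk6 by 0.51 on the log2 scale. Strain and copy number cannot be told apart in these differences.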

How the results depend on the processing

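Leaving out 1 library at a time, the members called numbered 8 to 11 in C3, 21 to 25 in C22, 3 to 7 in the difference, 0 to 2 without c-Jun, 7 to 11 between control strains, 18 to 24 for the shared age slope and 4 to 14 for the splines. Other alternatives that moved a count of members over 1.5 times were DESeq2 (2 without c-Jun), the likelihood ratio test of edgeR (3 without c-Jun), all libraries in 1 fit (2 without c-Jun), controls alone for the age slope (10) and a straight line per group in place of splines (13). With age as a replicate block, 9 members were called in the difference, 2 without c-Jun, 11 in C3, 26 in C22 and 12 between strains. Deviations at the same age correlated at 0.33, 0.62, 0.16, 0.46 and 0.05 between the control strains, in order of age. They ran from -0.24 to 0.33 for C3 and from -0.12 to 0.40 for C22 with their controls. Over all genes tested without c-Jun the calls were 100, against 279 by DESeq2, 253 by the likelihood ratio test, 330 with the block, 161 with all libraries in 1 fit and 134 with no filter. Over all genes of the age slope they were 4518 against 1400 with controls alone.

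A few values near 0 changed sign, and each was uncalled: Kcnab2 in C3 was 0.0557 with library sizes alone, 0.00605 with no filter and -0.0705 to 0.0788 without 1 library; Kcnk13 in C3 was -0.00444 by DESeq2 and -0.0501 to 0.11 without 1 library; the difference of Kcna1 was -0.42 to 0.11, the latter without the C3 library of 3 weeks; Kcnj10 without c-Jun was 0.00795 with the block and -0.18 to 0.14 without 1 library; and the slope of Kcna1 was 0.0206 with controls alone. The cause was not tested. Of all values recomputed, 1944 kept direction and call, 124 lost the call and 19 gained it. Counts at or near the floor limit Kcna4 and Kcnk10 in controls, Kcnj14 in WT-C3 and Kcnf1 in C22.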
